A study of Mus musculus with 24 samples.

Results

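The 10 genes described here encode enzymes that modify and crosslink collagen: the lysyl oxidases Lox, Loxl1, Loxl2, Loxl3 and Loxl4, the lysyl hydroxylases Plod1, Plod2 and Plod3, and the catalytic alpha subunits of prolyl 4-hydroxylase, P4ha1 and P4ha2. They were chosen by name, and all 10 were found among the 53801 genes listed. Transcriptomes of mouse pancreatic stellate cells (PSC), the matrix-producing fibroblast-like cells of the pancreas, were measured by RNA sequencing in 24 libraries, 3 in each of 8 groups. The PSC were primary cells of wild-type C57BL/6J mice, pooled from several pancreata and used at early passage. Their partners were KPC cells, a single murine pancreatic cancer line. In both models the cells were separated by a membrane with 1 µm pores. In the standard co-culture the KPC cells grew on the bottom of the well and the PSC on the insert. In the inverse co-culture the KPC cells grew on the underside of the same membrane, seeded a day before the PSC. Control PSC were mono-cultured, and each model had its own controls at 24 h and 72 h. Libraries were built from 450 ng of RNA in the standard and 120 ng in the inverse model, and in the inverse model the cells had already shared the membrane during PSC attachment, so that equal labelled times were not equal times together. The medium also differed: standard PSC and their controls attached in another medium, replaced when the time count began. Inverse PSC and their controls were in the final medium from seeding. Model, RNA input, medium history and time together therefore cannot be told apart. The question for each enzyme was whether its transcript differed between co-cultured and control PSC, and whether that difference depended on model or time.

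Newly made procollagen chains are hydroxylated in the endoplasmic reticulum. Prolyl 4-hydroxylase, a tetramer of alpha subunits with protein disulfide isomerase (P4hb), makes the hydroxyproline that keeps the triple helix stable at body temperature. Lysyl hydroxylases prepare lysines for glycosylation and crosslinking, and Plod2 acts on the telopeptides. Outside the cell, copper-dependent lysyl oxidases turn lysine and hydroxylysine into aldehydes that condense into the crosslinks of collagen and elastin fibres. P4ha1, P4ha2, Plod1, Plod2 and Lox are known targets of hypoxia-inducible factor, which binds a core of ACGTG or GCGTG.

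Promoter sequence was at hand in RefSeq (GRCm38.p6) for 5 of the members, and matches to this core in the 250 bases before their transcription starts are shown. Of these 5 genes, 4 were called higher after 72 h of inverse co-culture, beside 3.27% of all genes, and Plod3 was not. Whether the matches bear on the levels was not tested. Each line gives 25 bases on the strand of the gene, 5′ to 3′, with the core or its reverse complement (CACGT or CACGC) in capitals.
P4ha1, chr10:59323123-59323147, plus strand: gggaacggtgGCGTGgcaggagctc
P4ha1, chr10:59323160-59323184, plus strand: ctgcgtcctcGCGTGggccagccta
P4ha1, chr10:59323270-59323294, plus strand: tgacagagcgCACGTagcgagggct
P4ha2, chr11:54100807-54100831, plus strand: gtgccggtccCACGCggcgcaagga
P4ha2, chr11:54100836-54100860, plus strand: tgcatcgcatACGTGcagcgcgtgg
P4ha2, chr11:54100845-54100869, plus strand: tacgtgcagcGCGTGgcggctcggg
Plod1, chr4:147936782-147936806, minus strand: gcgggcggagGCGTGcgcggcaccg
Loxl4, chr19:42612954-42612978, minus strand: cgtcacccccCACGCtccccgcagc
Plod3, chr5:136986857-136986881, plus strand: gcctactgcgCACGCgtactaacca
Plod3, chr5:136986905-136986929, plus strand: ccttccggtgGCGTGcacacatacg
Plod3, chr5:136986919-136986943, plus strand: gcacacatacGCGTGcgcagtcttt
Plod3, chr5:136986955-136986979, plus strand: tgaagtcattACGTGatgttccctt

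The core was searched on both strands, and 38.6% of all 32851 promoter windows of that length held at least 1 match, 6.58% at least 3. Plod3 held 4 matches, P4ha1 and P4ha2 3 each, and Plod1 and Loxl4 1 each. A match is a stretch of letters and was not measured as a binding site.

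Depth was high for all members. Libraries held 15932737 to 24798761 counted fragments, recovered from the deposited FPKM (fragments per kilobase of exon, scaled to library depth). The lowest member, Loxl4, rested on 438 to 1875 fragments per library and the highest, Lox, on 18958 to 83294. The PSC expressed their defining genes strongly: the summed FPKM of 9 fibroblast and stellate cell markers was between 10962 and 20354, although Gfap stayed under 1 FPKM in every library. Replicate 1 of the standard model stood apart from its fellow replicates in several members, in control and co-culture alike, and the numbers of the standard replicates paired the libraries, so paired values are given for that model. No labels give a batch.

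By median FPKM over the 24 libraries, Lox (416), Loxl1 (362), Plod2 (297) and Plod3 (236) were the most abundant and Loxl4 (24.0) the least. These levels per length depend on the gene length used: on the exon length of the GENCODE annotation, Loxl1 (362) exceeded Lox (351), and P4ha2 went from 229 to 42.9, because the length behind its FPKM was 1170 bases against 6239 annotated. Differences between libraries for 1 gene are not touched by this. Reads were counted without strand, and 11.6% of the exon bases of Loxl3 are shared with Htra2 and 11.9% of those of Plod3 mainly with Znhit1, both on the opposite strand, so reads there cannot be told apart by strand. How far this moved the levels of these 2 members was not measured.

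**Figure D1:**
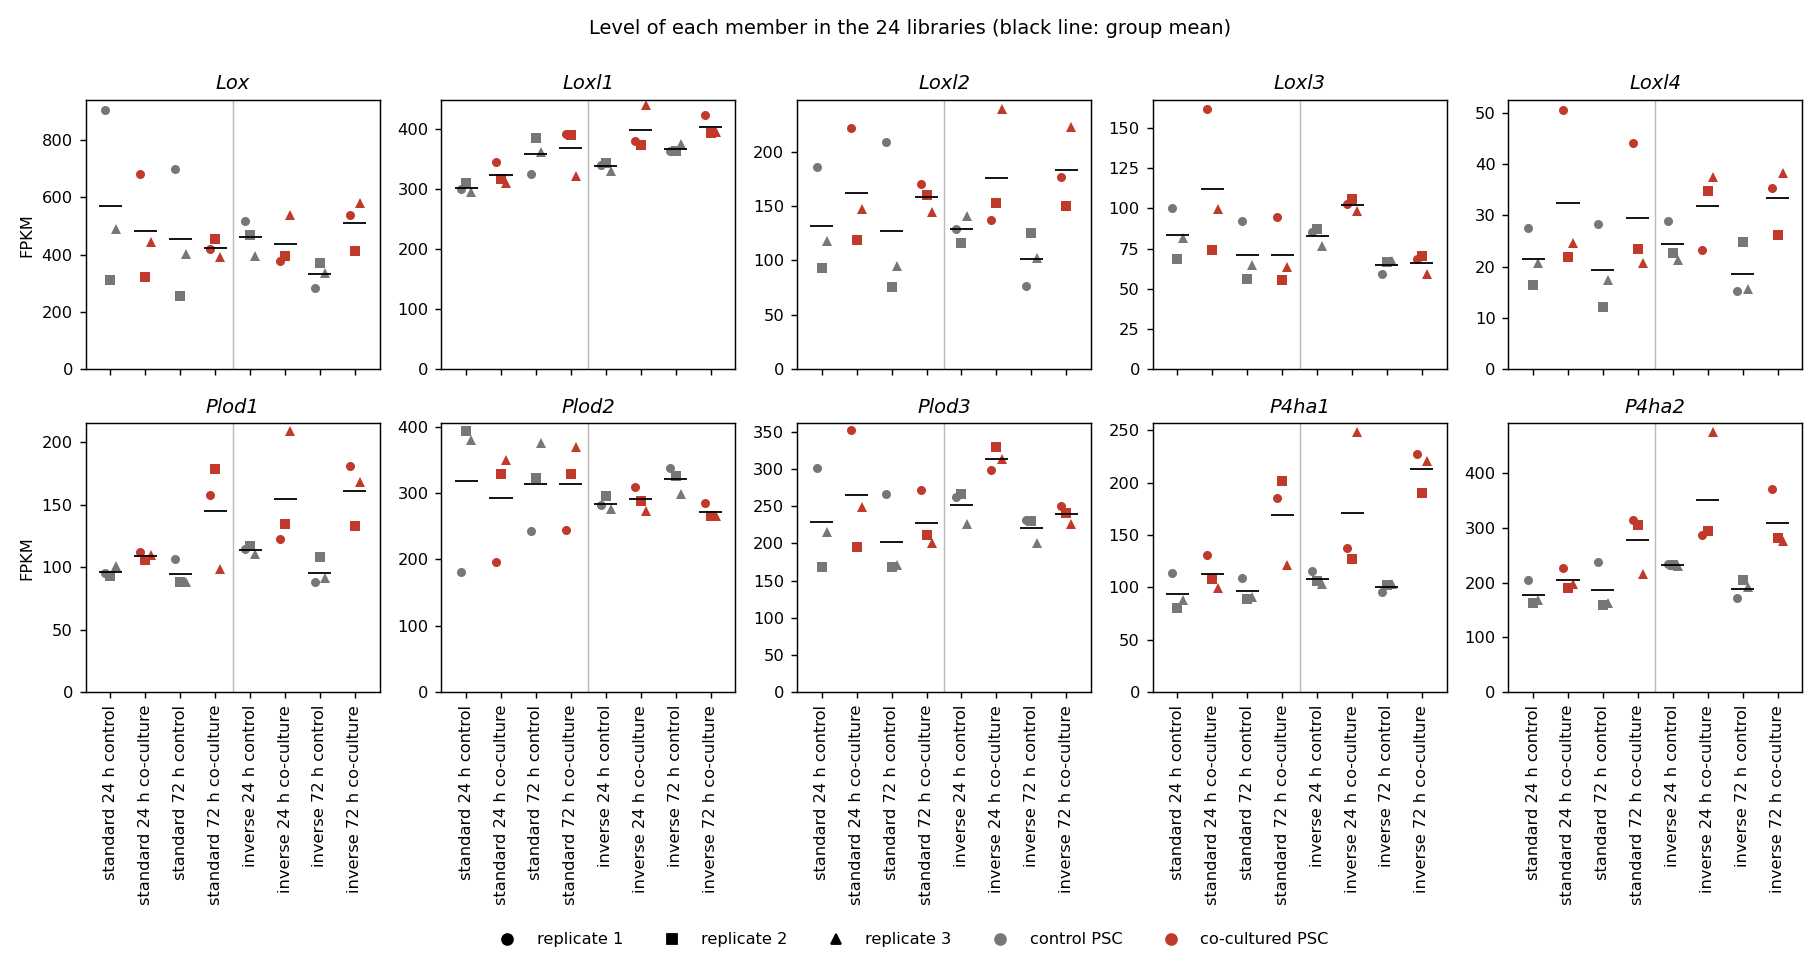
FPKM (vertical axis, from 0) of each of the 10 members in all 24 libraries, by group; circles, squares and triangles are replicates 1, 2 and 3, grey control and red co-cultured PSC, and black lines group means. At 72 h in the inverse model P4ha1 lies at 189.9 to 227 in co-culture against 95.7 to 103 in controls. In the standard model at 24 h replicate 1 stands apart in Lox and Plod2.

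In inverse co-culture at 72 h, 6 of the 10 members were up-regulated and none was down-regulated. P4ha1 rose most, by 2.11-fold, followed by Loxl2, Loxl4, Plod1, P4ha2 and Lox with 1.54- to 1.82-fold. Among all 13066 genes tested, 3.27% were higher and 9.57% lower at the same threshold (limma on log2(FPKM + 0.5), Benjamini-Hochberg adjusted p under 0.05). With voom on recovered fragments 3.96% were higher, and the number of members called was the same, 6. The median difference of the members was 0.66 on the log2 scale, beside -0.16 over all genes tested.

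P4ha1 carries the catalytic site of the main prolyl 4-hydroxylase. Its FPKM was 95.7, 102 and 103 in the 3 control libraries and 227, 189.9 and 221 in co-culture. All co-cultured libraries lay far above all controls, and the log2 difference was 1.08 ± 0.10 (SE; limma adjusted p = 0.0036). It was the 1 member called under each of the 14 alternative settings and left-out libraries, with adjusted p from 0.0014 to 0.026.

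P4ha2 encodes the second common alpha subunit. It measured 172, 205 and 191 FPKM in controls and 369.9, 282 and 275 in co-culture, again without overlap. The log2 difference was 0.70 ± 0.14 (limma adjusted p = 0.021). Within each library the ratio of P4ha1 to P4ha2 FPKM was 0.531 ± 0.0321 (SD, n = 3) in controls and 0.697 ± 0.0984 in co-culture; these ratios did not overlap, and the exact permutation test (two-sided) gave p = 0.10, the smallest that 3 against 3 libraries allow.

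Among the lysyl hydroxylases only Plod1 was called. It measured 88.3, 108 and 91.3 FPKM in controls and 181, 133 and 168 in co-culture, a log2 difference of 0.74 ± 0.14 (limma adjusted p = 0.019). Plod2 lay on the other side: 337, 326 and 298 FPKM in controls and 285, 265 and 265 in co-culture. The Plod2 libraries did not overlap, but the log2 difference of -0.24 ± 0.10 did not pass (limma adjusted p = 0.14), and with median-of-ratios scaling it was -0.07. Plod3, which also glycosylates hydroxylysine, differed by 0.12 ± 0.10 with overlapping libraries (limma adjusted p = 0.46). The ratio of Plod1 to Plod2 was 0.262, 0.330 and 0.306 in controls and 0.635, 0.502 and 0.634 in co-culture, without overlap (exact permutation p = 0.10, the smallest possible).

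Of the lysyl oxidases, Lox, Loxl2 and Loxl4 were called. Lox, the founding member of the family, measured 285, 372 and 335 FPKM in controls and 539, 412 and 582 in co-culture. Loxl2, which crosslinks collagen IV, measured 76.7, 125 and 102 in controls and 177, 150.1 and 223 in co-culture. Both sets stood clear of their controls, by 0.62 ± 0.16 for Lox (limma adjusted p = 0.045) and 0.86 ± 0.21 for Loxl2 (0.035). Loxl4 rose from 15.2, 24.8 and 15.6 to 35.4, 26.2 and 38.3 FPKM, a log2 difference of 0.85 ± 0.22 (limma adjusted p = 0.044), with 1 control close to the lowest co-culture. Loxl1, linked to elastic fibres, differed by only 0.14 on the log2 scale, at 364, 363 and 375 against 424, 394 and 396 FPKM. Its libraries did not overlap, but it was not called (limma adjusted p = 0.34). Loxl3 showed no call, with a log2 difference of 0.04 and a 95% interval from -0.21 to 0.28.

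Co-culture libraries lay above all controls in 7 members, beside 9.53% of all genes tested. They lay below all controls in 1 member, Plod2, for which the share over all genes was not computed. With few libraries in each group, the count of 6 members changed with the libraries used, as did the 427 of all 13066 genes called higher. Without co-culture replicate 1, control replicate 1 or control replicate 3 the member count was 1, beside 119 of 12858, 175 of 12679 and 138 of 12698 genes. Without co-culture replicate 3 it was 3, beside 399 of 12875 genes. With all 24 libraries in one model it was 3, beside 201 of 14452 genes.

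**Figure D2:**
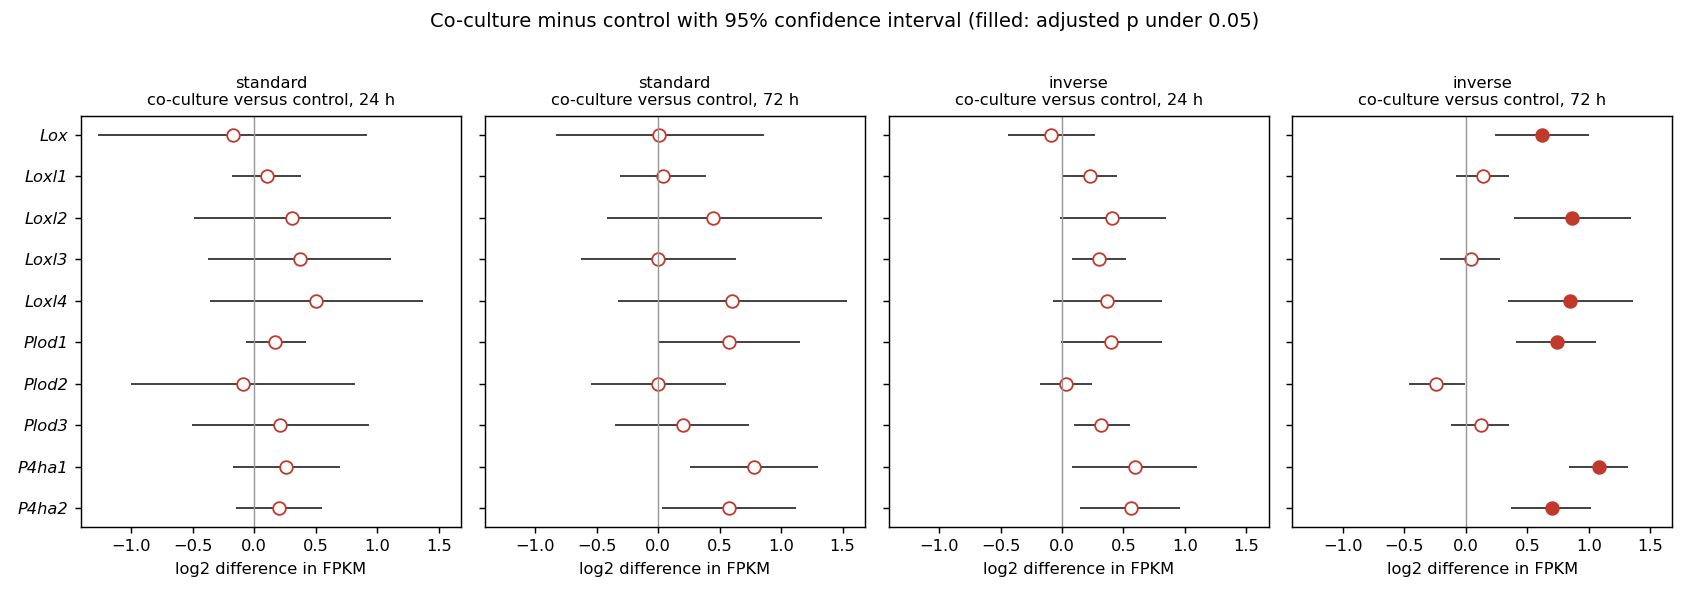
Log2 difference in FPKM between co-culture and control (horizontal axis) with 95% confidence intervals for the 10 members in the 4 co-culture comparisons; filled points passed an adjusted p of 0.05. Filled points are found in the inverse model at 72 h, where P4ha1 reaches 1.08 and Plod2 lies at -0.24.

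Genes listed as markers of other cell types also differed in this comparison. The summed FPKM of 8 adipocyte markers was 1730 to 2598 in controls and 414 to 968 in co-culture, with Plin1, Cd36, Fabp4 and Cidec lower by 3.00 to 4.32 on the log2 scale. The sum of 8 macrophage markers was 118 to 226 in controls and 49.3 to 79.2 in co-culture, with Adgre1, Lyz2, Csf1r and C1qa lower. Fibroblast and stellate cell markers summed to 10962 to 14746 in controls and 15702 to 18046 in co-culture, sums made up mostly of Col1a1 and Col1a2. Of the 8 tested, 5 had an estimate above 0 and 1, Pdgfra, was called, while Vim was at 786 to 996 FPKM in controls and 722 to 1116 in co-culture and Acta2 at 763 to 1347 and 563 to 1362. Epithelial markers were close to 0, with sums of 2.50 to 6.71 in controls and 4.77 to 10.7 in co-culture. Of the 2 tested, 1 had an estimate above 0. Krt19 rose from 0 to 0.176 FPKM to 1.17 to 3.11. Muc1, which made up most of the control sums, was at 6.37, 2.81 and 2.50 FPKM in controls and 3.54, 3.27 and 2.90 in co-culture. Krt8 was listed at 0 in all 3 controls and at 0.919, 0.0880 and 3.14 FPKM in co-culture, and Krt18 at 0 in the controls and at 0.383, 0 and 1.23 in co-culture, while Epcam, Cdh1 and Cldn4 were under 1 FPKM in every library. The sums of the endothelial (2.33 to 7.84), acinar (6.31 to 20.1) and mesothelial (14.3 to 46.4) lists were low throughout. Within this comparison the acinar sum, nearly all Cela1, was 15.3 to 18.1 in controls and 10.7 to 11.1 in co-culture. Cela1 was the 1 acinar marker tested and was called lower, with a log2 difference of -0.56. The part of such cells in the member differences was not tested. The study showed lipid droplets in its PSC. Fewer cells of a type, less RNA per cell and a change of these genes within PSC cannot be told apart in bulk libraries.

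**Figure D3:**
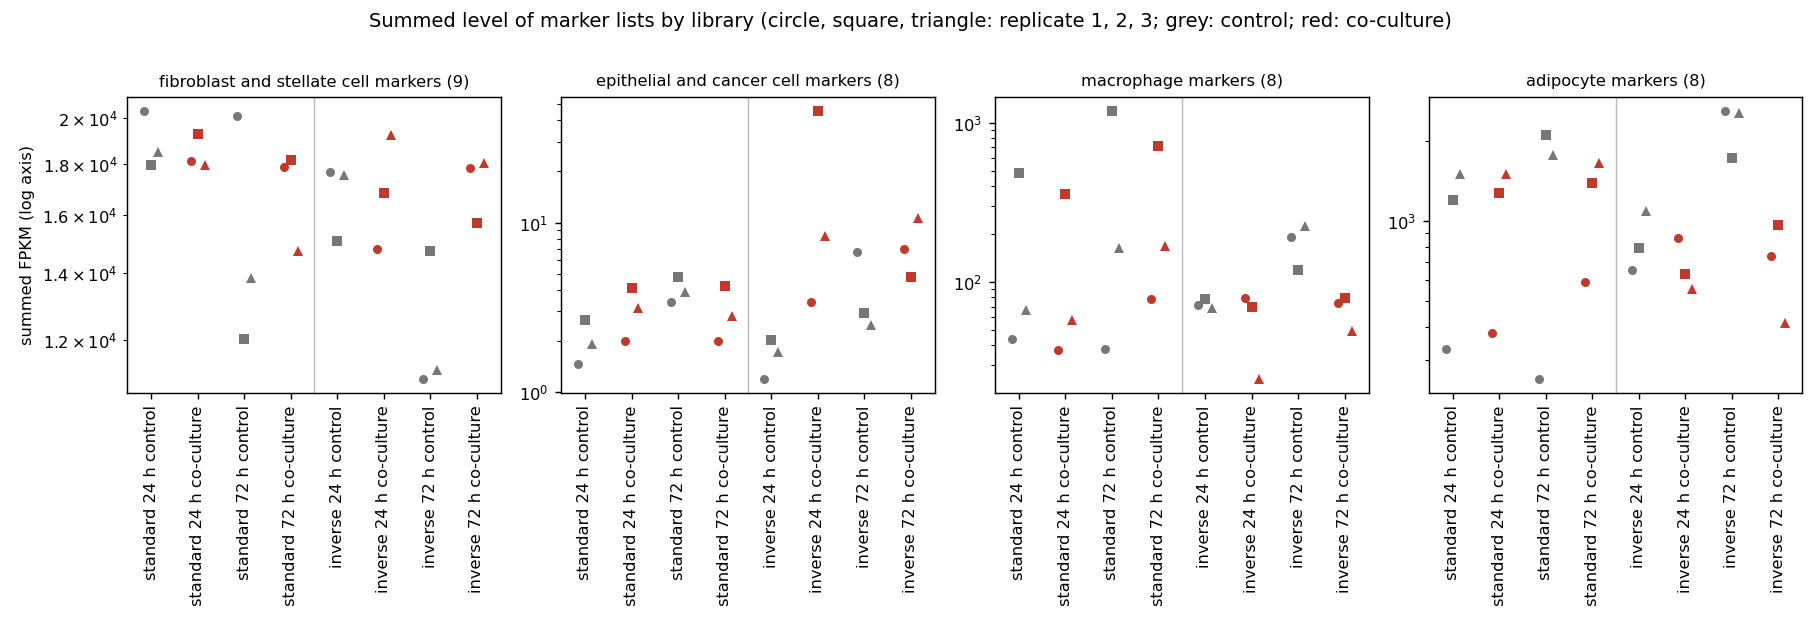
Summed FPKM of 4 marker lists (vertical axes, log scale) in the 24 libraries; symbols are replicates, grey control and red co-culture. Adipocyte and macrophage sums of inverse co-culture at 72 h lie below those of their controls, and the macrophage sum of replicate 2 of the standard model lies between 357 and 1192.

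At 24 h of inverse co-culture no member was called (0 of 10, beside 2.47% of 12827 genes), and 5 had an unadjusted p under 0.05, beside 14.8% of all genes, and voom also called none. The direction was nonetheless upward in 9 of the 10 estimates, and the co-culture libraries lay above all controls in 6 members, beside 7.38% of all genes. P4ha1 measured 116, 106 and 103 FPKM in controls and 138, 127 and 248 in co-culture. P4ha2 measured 233, 232 and 231 against 286, 293 and 474, and Plod1 115, 117 and 111 against 123, 135 and 209. In all 3 genes replicate 3 of the co-culture was far above the other two. The macrophage marker sum of that library was the lowest of all, at 24.4, and the epithelial sum was highest in replicate 2, at 45.7; their part was not tested. Lox differed by -0.09 ± 0.16, so that its 24 h estimate stood on the other side of 0 from its 72 h value. Loxl3 measured 85.3, 87.1 and 76.8 FPKM in controls and 103, 106 and 98.2 in co-culture, a difference of 0.30 ± 0.10 that did not pass (limma adjusted p = 0.17).

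In the standard co-culture no member was called at either time by limma or voom, and limma called no gene (0% of 12859 at 24 h and 0% of 12863 at 72 h). That 0% belongs to this fit of 6 libraries. With all 24 libraries in one model 5 genes were called at 24 h and 36 at 72 h, none of them a member. The study also reported differentially expressed genes in this model at both times. In the fit of 6 libraries at 24 h, 0 members had an unadjusted p under 0.05, beside 2.89% of all genes. At 72 h, 3 did, beside 6.22%: P4ha1, with 109, 88.9 and 91.1 FPKM in controls and 185, 202 and 121 in co-culture, P4ha2 with 238, 159.7 and 162 against 313, 304 and 215, and Plod1 with 107, 87.9 and 88.3 against 158, 179 and 98.8. Only P4ha1 was above its controls in every library, which held for 3.36% of all genes. Its log2 difference was 0.78 ± 0.22 (limma adjusted p = 0.72). At 24 h the co-culture stood clear of its controls in 2 members, Loxl1 and Plod1, beside 3.35% of all genes, with differences of 0.10 and 0.17. The 95% intervals at 72 h ran from 0.26 to 1.30 for P4ha1 and from -0.83 to 0.86 for Lox, so changes of the size seen in the inverse model lie within both.

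Pairing by replicate number narrowed the spread in the standard model but called no member. With the replicate block the SE of Lox at 24 h fell from 0.45 to 0.10 and that of Loxl2 from 0.33 to 0.07, and 7 members had an unadjusted p under 0.05, up from 0, while the number of all 12859 genes under it went from 371 to 1932. The smallest adjusted p of a member was 0.10, for Loxl2, while 1.22% of all genes were called. At 72 h the SE of Lox fell only from 0.35 to 0.30, and the smallest adjusted p of a member was 0.32, for P4ha1, with 0.00777% of all genes called. Lox reached 907 FPKM in replicate 1 of the 24 h controls and 682 in its co-cultured partner, against 313 and 321 in replicate 2; the same pair had the lowest Plod2, 181 and 196 FPKM, against 394 and 329.

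The difference of the co-culture effect between the models was not called for any member, at 24 h or 72 h (limma, 0% of 14452 genes in each; 0 members at an unadjusted p under 0.05, and 0 by voom). At 72 h the effect on P4ha1 was larger in the inverse model by 0.30 ± 0.30 on the log2 scale, and that on Lox by 0.61 ± 0.49 (limma adjusted p = 1.00 for both). The 6 calls in the inverse model and the 0 in the standard model are thus not shown to differ. The effect also was not shown to differ between times: 0% of 13694 genes were called in the standard and 0% of 13722 in the inverse model, where 1 member, Lox, had an unadjusted p under 0.05, beside 10.7% of all genes. For Lox in the inverse model the 72 h effect exceeded the 24 h effect by 0.71 ± 0.24 (limma adjusted p = 0.36). Without co-culture replicate 3 at 24 h, 1 member passed, P4ha1, with 0.79 (adjusted p = 0.042).

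The controls themselves moved with time in the inverse model. Lox was lower in control PSC at 72 h than at 24 h, with 285, 372 and 335 against 519, 467 and 394 FPKM, and Loxl3 with 59.5, 66.5 and 67.5 against 85.3, 87.1 and 76.8. The log2 differences were -0.48 ± 0.13 (limma adjusted p = 0.039) and -0.36 ± 0.09 (0.030), and neither pair of groups overlapped. These 2 of 10 members stand beside 9.05% of 13092 genes that were lower at 72 h. Since the 72 h co-culture is compared with these controls, Lox in 72 h co-culture (511 ± 88.7 FPKM, SD, n = 3) can be set beside 24 h controls (460.2 ± 63.3), with libraries that overlap. The count was 0 without either replicate 1, without 24 h replicate 2 or without 72 h replicate 3, and 6 without 72 h replicate 2. In the standard model no member was called between 72 h and 24 h controls (limma, 0% of 12963 genes; 0 members at an unadjusted p under 0.05). With the replicate block 3 members had an unadjusted p under 0.05, beside 8.91% of all genes. Lox (-0.31 ± 0.10) and Loxl3 (-0.25 ± 0.10) were lower at 72 h, as in the inverse controls, and Loxl1 (0.24 ± 0.10) was higher. None passed (smallest limma adjusted p of a member 0.45, for Lox). No member was called between the control PSC of both models, at 24 h (0% of 12903; 1 member, P4ha2, at an unadjusted p under 0.05, beside 1.74% of all genes) or 72 h (0% of 13106; 0 members).

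Over the 8 groups the order of the means differed between members. The mean of Loxl2, Loxl4, Plod1, P4ha1 and Loxl1 was highest in inverse co-culture at 72 h, that of P4ha2 and Plod3 in inverse co-culture at 24 h, that of Loxl3 in standard co-culture at 24 h, that of Plod2 in inverse controls at 72 h and that of Lox in standard controls at 24 h. The highest mean was 2.26 times the lowest for P4ha1 and 1.18 times for Plod2. Most neighbours in these orders did not differ beyond their spread: of the 7 neighbouring pairs of each member, 1 pair had separate libraries in Lox, Loxl1, Plod1 and P4ha2, and none in the other members.

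Genes of the same pathway are described for inverse co-culture at 72 h. Their lists were chosen by name with earlier results of these data known. They hold Ndufa4l2, Fn1 and Eln, which the study had reported as differentially expressed, so the counts are not independent support. Of 16 hypoxia-induced genes other than the members, 10 were up-regulated and none down-regulated, beside 3.27% and 9.57% of all genes, with a list median of 0.77. Pgk1, a glycolytic enzyme, rose 2.43-fold, Pdk1, which keeps pyruvate from the mitochondria, 2.83-fold, Ndufa4l2 13.7-fold and the glucose transporter Slc2a1 1.69-fold (limma adjusted p = 0.0046, 0.0046, 0.0048 and 0.011). None of the 16 was called in the other co-culture comparisons, although 1 and 5 of them had an unadjusted p under 0.05 in the standard model (24 h and 72 h) and 2 did at 24 h of the inverse model, beside 2.89%, 6.22% and 14.8% of all genes. The list medians there were 0.20, 0.54 and 0.39. With the replicate block, 1 of them, Adm, passed in standard co-culture at 24 h, with -0.77.

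Of the partners in collagen folding, 13 of 15 were tested, with 11 estimates above 0 and a list median of 0.15. P4ha3, a further alpha subunit, rose by 0.55 ± 0.14 (limma adjusted p = 0.039), and Tmem38b, an endoplasmic reticulum channel, fell by 0.67 on the log2 scale (adjusted p = 0.014). These were the only calls of this list, beside 3.27% higher and 9.57% lower among all genes. None of the 10 genes tested of the 12 for procollagen export and propeptide processing was called (limma; 3 had an unadjusted p under 0.05, beside 32.2% of all genes). Of 16 substrate and fibre assembly genes, 2 rose and 3 fell, beside 3.27% and 9.57% of all genes. Fibronectin (Fn1, by 1.51) and Col5a2 (by 0.57) were higher. Elastin (Eln), lumican (Lum) and fibromodulin (Fmod) were lower, elastin at 47.9 ± 10.1 FPKM in co-culture and 137 ± 27.4 in controls. At 24 h elastin and the elastic fibre protein Fbln5 were lower, by -0.92 and -0.66 on the log2 scale, and Col3a1 was higher by 0.59. Of all genes, 2.47% were called at 24 h. At 72 h the difference of Fbln5 was -0.15 and that of Col3a1 0.37 (limma adjusted p = 0.75 and 0.39). In the standard model at 24 h, the replicate block called 3 genes of this list, Fn1 (0.78), Mfap4 (-0.71) and Fbln5 (-0.65), beside 1.22% of all genes. Of 8 genes tested of the 10 for copper and ascorbate supply, the ferroxidase Heph and the copper transporter Slc31a2 fell, beside 9.57% of all genes. None of the 8 rose, beside 3.27%.

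**Figure D4:**
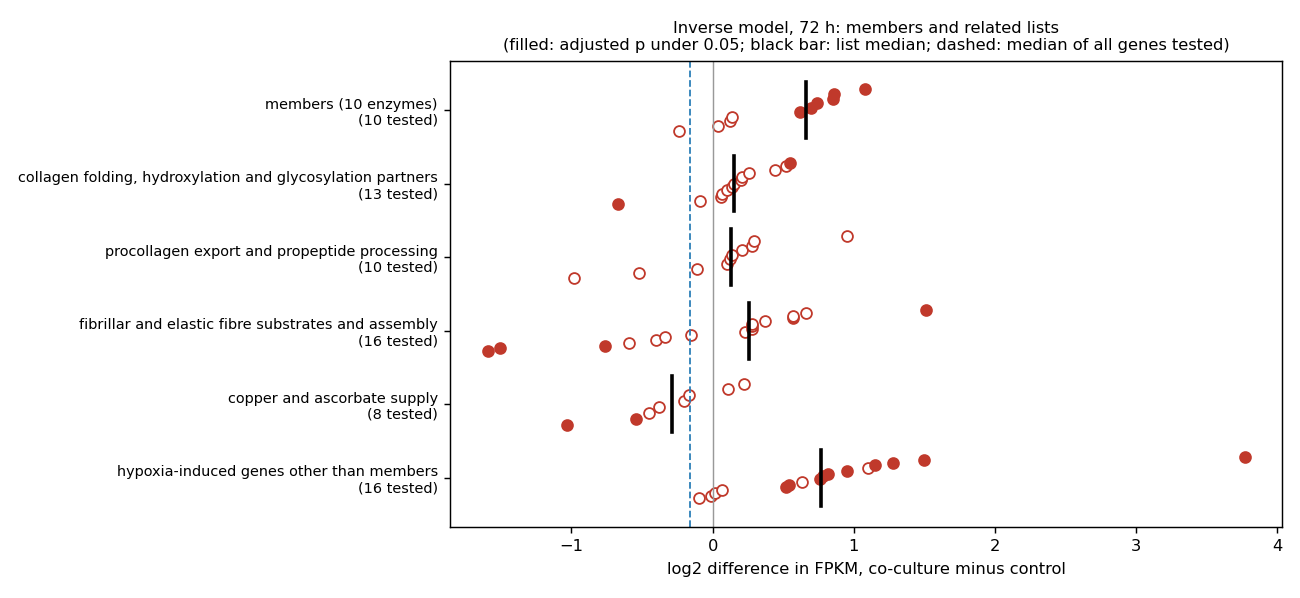
Log2 difference in FPKM (horizontal axis) of every tested gene of the members and 5 related lists in inverse co-culture against control at 72 h; filled points passed an adjusted p of 0.05, black bars are list medians and the dashed line is the median of all genes tested, -0.16. The members (median 0.66) and the hypoxia-induced genes (0.77) have the highest medians of the lists shown.

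Across the 24 libraries, P4ha1, P4ha2 and Plod1 shared some of the genes most like them in log2 FPKM. The most similar genes of the other members were not shared. These are descriptions, since libraries share model, time and replicate number. P4ha2 was most like Fam162a (Pearson r = 0.96, Spearman rho = 0.96), Pgk1 (r = 0.93) and Plod1 (r = 0.93), and P4ha1 like Gpr35 (r = 0.96), Fam162a (r = 0.95) and Pfkl (r = 0.95). Plod1 was most like Ndufa4l2, Fam162a and P4ha2, with r from 0.93 to 0.94. Inhba and Slc7a1 (r = 0.92 for both) were among the genes most like Lox. Loxl2 was most like Prrc1, Lrrc32 and Fstl3, and Loxl4 like Myh9 (r = 0.95), Tmem59l and Flnc. Plod3 was most like the mitotic genes Cks2, Ndc80 and Ckap2 (r = 0.92 to 0.93), Plod2 like Il6st, Ankrd55 and Prickle1, Loxl3 like Dnajc10, Gldn and Hnrnpa1, and Loxl1 more loosely (r = 0.81 to 0.82) like F730043M19Rik, Gpi1 and Sipa1.

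**Figure D5:**
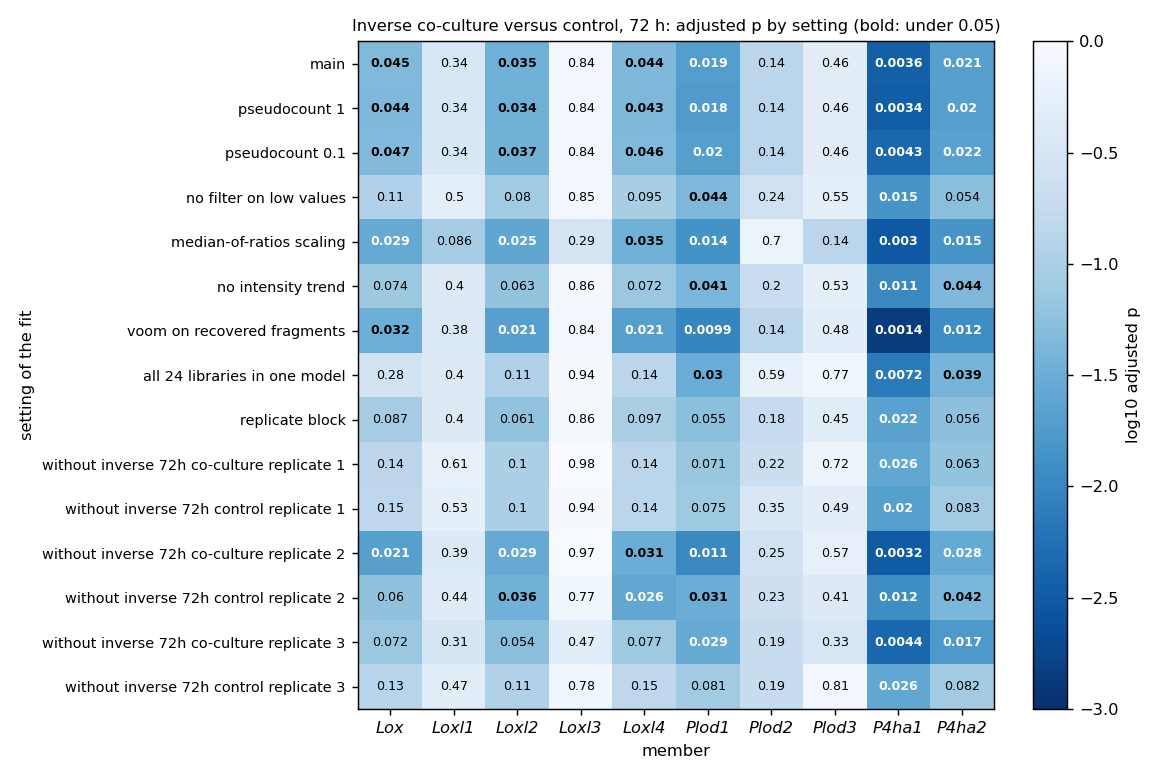
Adjusted p of the 10 members in inverse co-culture against control at 72 h (colour, log10 scale, with the value in each cell) for the fit as reported and 14 alternatives, including each library left out; bold values are under 0.05. P4ha1 passes in every setting shown, Plod1 in 10 of the 14 alternatives, and Loxl1, Loxl3, Plod2 and Plod3 in none.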

How the data were processed

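The authors sequenced polyadenylated RNA in read pairs, aligned it to GRCm38 with HISAT2 2.0.5 and counted with featureCounts 1.5.0-p3 without strand; the annotation release is not given in the sources used here. The deposited values are FPKM per gene; no count table was used here. Gene identifiers were matched to GENCODE M21 (53706 of 53801). Library totals and the lengths behind the FPKM were worked out from the values: whole fragments (within 0.02) were recovered for 100.0% of 14452 expressed genes, and with them voom called 2085 genes in inverse co-culture at 72 h, against 1678 in the test used.

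Genes with FPKM above 1 in at least 3 libraries of a fit were tested with limma 3.58.1 (R 4.3.3) with intensity trend on log2(FPKM + 0.5), two-sided, over 12 comparisons, and called at a Benjamini-Hochberg adjusted p under 0.05 over all genes tested. Fold changes are on this scale and understate those of low genes. On simulated data this test made more false calls than its nominal rate, nearly all in genes of under 100 fragments; at the depth of the members it stayed below that rate, and voom kept to it. Shares of all genes called may thus be somewhat high. The simulated counts had the same relative spread in every gene and fewer changed genes than were called in inverse co-culture at 72 h. The rates found there need not hold for these libraries.

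Same-numbered libraries of the standard model deviated together over all genes (correlations 0.48 to 0.82 of deviations from group means), so they were treated as paired from the data; those of the inverse model did not. The study calls the replicates biological, but whether they came from separate isolations is not stated, so p-values may measure technical spread. The members and gene lists were chosen with earlier results of these data known. Named genes are all members, the called genes of each list with the smallest adjusted p (at most 4), and the 3 most similar genes of each member, of which 1 is not reported here; Fmod was named beyond this rule, after its value was seen.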

Additional observations from a re-analysis of the deposited data

How the results depend on the processing

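In inverse co-culture against control at 72 h, the 6 called members became 2 with no filter on low values and 3 without the intensity trend. The count was 3 with all 24 libraries in one model, and 1 to 6 when each library was left out. Genes called higher among all tested went from 427 to 204, 329 and 201 in these settings, and to 119 to 402 over left-out libraries. The member count stayed at 6 with either other pseudocount (1 or 0.1), median-of-ratios scaling and voom. For controls at 72 h against 24 h in the inverse model, the 2 called members became 0 with no filter, without the trend and with all libraries in one model, and 0 to 6 when a library was left out. For the effect between times in the inverse model the count was 0 to 1 over left-out libraries. The causes were not tested. The other 9 comparisons called 0 members under every setting run, including those without replicate 1 or replicate 2 of the standard model, which were chosen after seeing the data. With median-of-ratios scaling, which moved the median of all genes at 72 h of inverse co-culture from -0.16 to 0.00, 9 of 10 members kept the group with the highest mean.

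The replicate numbers did not pair the inverse libraries (correlations -0.17 to 0.10 over the same-numbered pairs). With the replicate block, 1 member, P4ha1, was called in inverse co-culture at 72 h and 0 in the inverse controls over time; it changed no other count of members. Among the related lists at 72 h of inverse co-culture it called 6 hypoxia-induced genes instead of 10, 1 substrate gene higher instead of 2 and 2 lower instead of 3, 1 copper and ascorbate gene instead of 2 and, of the folding partners, 0 higher instead of 1; at 24 h it called 0 substrate genes instead of 3. No single-gene value that was called, or became called, changed direction in the 2606 values recomputed. Every member rested on at least 438 fragments in each library.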
